A study of Schmidtea mediterranea with 18 samples.

Results

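The transcripts described here come from a 6-day regeneration course in the planarian Schmidtea mediterranea. Their mean level was higher on days 5 and 6 after amputation than on days 1 and 2, whichever RNAi the animals had received. They were selected on read counts scaled to CPM, reads per 1e6 aligned reads, with 0.1 added to each mean. A transcript entered if its mean over 18 libraries was at least 2 CPM and if its 6-day means in APC RNAi and in Bcat RNAi were each 0.67 to 1.45 times that in control RNAi. Its mean over days 5 and 6 of all treatments also had to be at least 1.5 times that over days 1 and 2, and higher in each treatment. Of 82955 transcripts, 15154 reached 2 CPM and 13691 of those met the level limits. A late over early ratio of 1.5 was met by 298, and 297 of these were also higher in each treatment. The 297 late-rising transcripts are 1.96% of those of at least 2 CPM.

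The animals were of the asexual, clonal strain CIW4 and otherwise wild type. They were fed RNA against APC, against Bcat (beta-catenin-1) or, as control, against GFP, which the worm lacks, 3 times, and were amputated 3 days after the last feed. PolyA RNA was taken daily from day 1 to day 6 from trunk fragments, as most labels say, although the treatment protocol names tail fragments. Each library, 1 per treatment and day, holds RNA of 3 biological replicates pooled before sequencing. Each SD below is taken across the 6 days within a treatment and so includes the course itself, and p-values measure the spread between pools of different days and treatments, not between animals.

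Planarians replace lost body parts from a population of dividing stem cells, the neoblasts, whose descendants differentiate over the days after a wound. Canonical Wnt signalling acts through beta-catenin, which the apc protein helps to degrade, and this pathway sets posterior against anterior identity in these worms. The knockdowns push it in opposite directions. As the files do not pair SmedASXL identifiers with names of genes, no function can be stated, and the loss of the APC and Bcat transcripts and the cell type markers could not be checked. In bulk RNA, more cells of a type and more RNA per cell cannot be told apart.

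Depth was 41549185 to 58308153 aligned reads a library, with means of 50.4 M ± 5.2 in APC RNAi and 49.0 M ± 5.21 in Bcat RNAi, against 52.0 M ± 4.13 in control RNAi (SD, n = 6 libraries each). Composition changed over the course, in the knockdowns not steadily. The TMM factor, edgeR's correction for composition, was 0.835 on day 1 and 0.97 on day 6 in APC RNAi, 1.032 and 1.13 in Bcat RNAi, and 0.969 and 1.148 in control RNAi. The APC RNAi day 5 library stood apart, with the lowest factor (0.804) and 13.7% of its reads in a single transcript. In Bcat RNAi the factor also fell on day 5, to 1.013 from 1.128 on day 4. Plain CPM, which the selection used, does not carry this correction, so the main values are also given after TMM scaling.

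The selected transcripts were moderately higher late in regeneration, and by a similar amount in every treatment. The ratio of days 5 and 6 to days 1 and 2 had a median of 1.59 over the 297 (quartiles 1.54 and 1.68, highest 2.08), against 1.03 over all transcripts of at least 2 CPM. By treatment its median was 1.52 in APC RNAi and 1.62 in Bcat RNAi, against 1.65 in control RNAi. Over all of at least 2 CPM it was 1.05, 1.00 and 1.04 in these treatments. These ratios chose the transcripts and are a description. Most lay near the limit: 162 were below 1.6 and 3 were at 2 or more. The value just inside the limit was 1.50014 and the value just outside was 1.49997. A falling counterpart, with the same limits and a ratio turned the other way, held 56 transcripts.

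Together the late-rising transcripts took a small and growing share of the reads. In APC RNAi the share was 0.541, 0.553, 0.69, 0.741, 0.797 and 0.937% on days 1 to 6. In Bcat RNAi it was 0.626, 0.772, 0.935, 0.956, 1.059 and 1.146%. In control RNAi it was 0.645, 0.638, 0.808, 0.911, 1.048 and 1.131%. The share was higher on each day than on the day before in both knockdowns, and in control RNAi except on day 2. Its mean was 0.71% ± 0.151 in APC RNAi and 0.916% ± 0.19 in Bcat RNAi, against 0.863% ± 0.205 in control RNAi (SD, n = 6 days each).

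**Figure D1:**
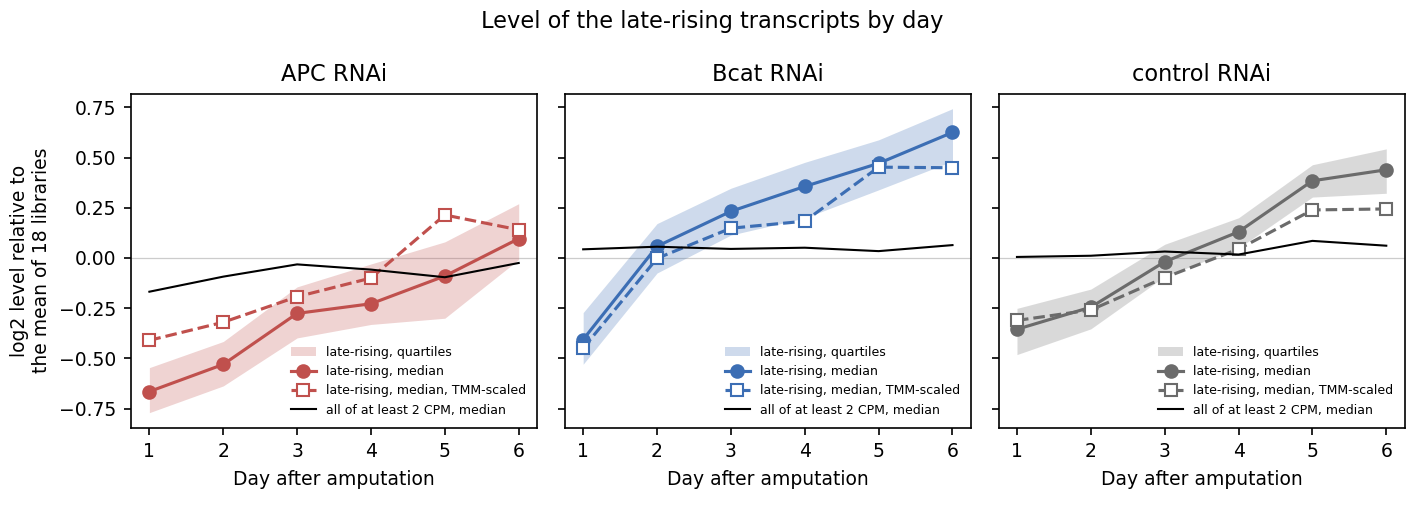
Median log2 level of the 297 late-rising transcripts (filled circles, quartiles shaded) on each day after amputation, relative to each transcript's mean over 18 libraries, in APC, Bcat and control RNAi. Open squares give the same median after TMM scaling and black lines all transcripts of at least 2 CPM. On plain CPM the median was -0.67 on day 1 and 0.10 on day 6 in APC RNAi, -0.41 and 0.63 in Bcat RNAi, and -0.36 and 0.44 in control RNAi.

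The size of the late over early ratio depended on how the libraries were scaled. Its direction was nearly fixed by the selection at 1.5, so nothing is read from its being kept. TMM scaling moved the median of all of at least 2 CPM by -0.09 on the log2 scale against plain CPM. After TMM scaling the median ratio of the 297 was 1.48 (lowest 1.38), against 0.971 over all of at least 2 CPM, and all 297 were still higher late than early in each treatment. The medians by treatment were then 1.46 in APC RNAi and 1.57 in Bcat RNAi, against 1.45 in control RNAi. Of the 297, 131 kept a ratio of 1.5, and 122 met every part of the selection on TMM-scaled CPM, which selected 179 transcripts in all and 74 in the falling counterpart. With RLE size factors, which moved the median of all transcripts by -0.12 on the log2 scale against plain CPM, the median of the 297 was 1.45 and 295 were higher in each treatment. Without the APC RNAi day 5 library the same selection took 493 transcripts, with a median ratio of 1.68.

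**Figure D2:**
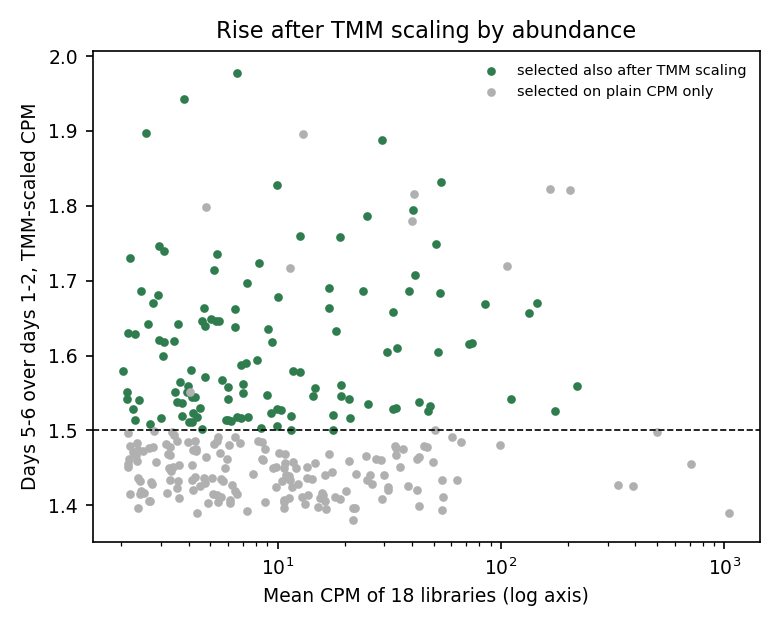
Ratio of days 5 and 6 to days 1 and 2 after TMM scaling (vertical axis) against mean CPM (horizontal log axis) for each of the 297 transcripts. The 122 that met the whole selection after TMM scaling are green, the others grey, the dashed line marks 1.5 and the lowest ratio is 1.38.

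Late-rising transcripts were less abundant than most. Their mean level had a median of 7.77 CPM (2.03 to 1054), against 17.8 CPM over all of at least 2 CPM. They were 3.51% of the transcripts of 2 to 4 CPM (75 of 2134), 2.62% of those of 4 to 16 CPM (130 of 4969), 1.37% of those of 16 to 64 CPM (74 of 5397) and 0.678% of those above (18 of 2654). The late over early ratio of all transcripts moved with abundance too, with medians of 1.15, 1.06, 1.01 and 0.99 in these classes on plain CPM and 1.07, 0.995, 0.951 and 0.929 after TMM scaling. The part of this drift in the membership of the low classes was not tested. The lowest count of any of the 297 in any library was 43 reads, and the median of their lowest counts was 237. Of the 297, 42 carry an identifier number next to that of another one. Whether such neighbours are forms of 1 gene is not given, so the 297 may stand for fewer genes.

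Both most abundant members had a larger late over early ratio in control RNAi than in either knockdown. SmedASXL_017924 had 796, 672, 864, 826, 746 and 1054 CPM on days 1 to 6 in APC RNAi. It had 894, 975, 1305, 1188, 1332 and 1360 CPM in Bcat RNAi, and 846, 765, 1094, 1277, 1409 and 1569 CPM in control RNAi. Its day 5 level in APC RNAi lay below its day 1 level, so early and late days overlapped there, whereas in Bcat and control RNAi they did not. Its ratio was 1.23 in APC RNAi and 1.44 in Bcat RNAi, against 1.85 in control RNAi. SmedASXL_018822 went the same way at a lower level, with 528 and 722 CPM on days 5 and 6 against 526 and 423 CPM on days 1 and 2 in APC RNAi. In Bcat RNAi it had 862 and 917 CPM late against 591 and 601 CPM early, and in control RNAi 975 and 1112 CPM against 598 and 497 CPM. Neither transcript met the limit of 1.5 after TMM scaling (1.39 and 1.45). The slope over days did not differ from control RNAi past the threshold for either transcript. The adjusted p was 0.579 and 0.618 for APC RNAi minus control RNAi (edgeR quasi-likelihood test). For Bcat RNAi minus control RNAi it was 0.864 and 0.874 (same test), and each of these passed in 0 of 15 alternatives.

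The largest ratio of late to early means over all treatments was that of SmedASXL_004625. It had 2.64, 3.39, 4.25, 4.98, 7.46 and 7.18 CPM on days 1 to 6 in APC RNAi. It had 3.67, 7.44, 8.42, 8.7, 11.2 and 12.2 CPM in Bcat RNAi, and 3.91, 4.61, 5.58, 7.13, 8.3 and 7.77 CPM in control RNAi. Days 5 and 6 lay above days 1 and 2 in each treatment, with ratios of 2.38 in APC RNAi and 2.08 in Bcat RNAi, against 1.86 in control RNAi. Over all treatments its ratio was 2.08, and 1.98 after TMM scaling.

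SmedASXL_076779 qualified in another way, mainly through the APC RNAi libraries. It had 32.9 and 37.9 CPM on days 1 and 2 of APC RNAi, and 204, 267, 233 and 278 CPM on days 3 to 6. In Bcat RNAi it had 216, 238, 219, 258, 260 and 257 CPM, and in control RNAi 228, 229, 198, 271, 255 and 278 CPM. The first 2 APC RNAi libraries were thus low, and from day 3 all treatments had similar levels. Its ratio was 7.21 in APC RNAi and 1.14 in Bcat RNAi, against 1.17 in control RNAi. Its slope over days was steeper in APC RNAi than in control RNAi by 0.63 log2 units per day (SE 0.12), which missed the threshold over all transcripts (adjusted p = 0.0669, edgeR quasi-likelihood test). With day as a replicate block the adjusted p was 0.0113 in edgeR, and over 15 alternatives it ranged from 3.93e-08 to 0.949 and passed in 8. The highest value was that without day 1. It was named for the size of its ratio, so this slope is no independent evidence.

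A second transcript, SmedASXL_068932, was picked out after its values were seen, for a similar course at a low level. It had 1.27, 1.31, 2.74, 4.45, 5.21 and 5.82 CPM on days 1 to 6 in APC RNAi. It had 2.54, 4.04, 3.82, 3.87, 4.27 and 5.07 CPM in Bcat RNAi, and 2.62, 3.06, 3.89, 4.43, 4.92 and 4.95 CPM in control RNAi. Again the first 2 APC RNAi libraries were the lowest of the 18. Its ratios were 4.04 in APC RNAi and 1.41 in Bcat RNAi, against 1.71 in control RNAi.

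**Figure D3:**
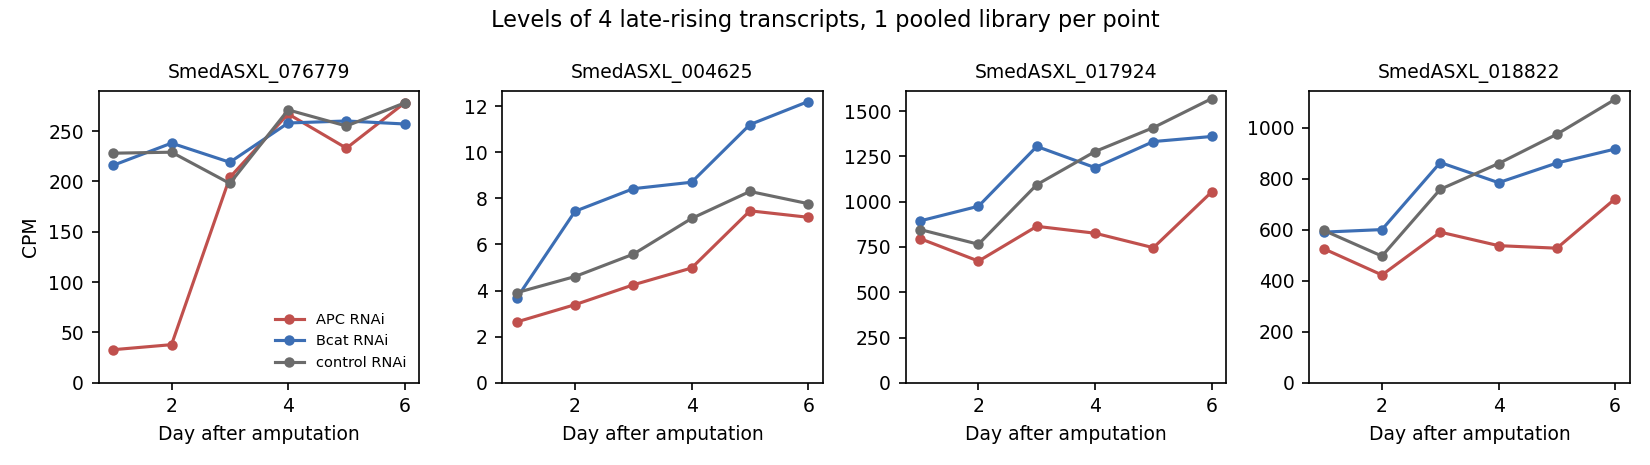
CPM (vertical axes from 0, a separate scale per transcript) by day after amputation for the transcripts with the largest ratios averaged over treatments among members of at least 4 CPM and for the most abundant transcripts, 1 pooled library per point. SmedASXL_076779 is below 40 CPM only on days 1 and 2 of APC RNAi, while SmedASXL_004625 is higher on days 5 and 6 than on days 1 and 2 in every treatment.

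The 3 treatment ratios of a member were used in its selection and are given as a description. The largest was a median of 1.21 times the smallest. It was under 1.5 times in 280 of 297, near the 94.2% of all transcripts of at least 2 CPM, so this likeness is no trait of the members. It was 2 times or more in 2, SmedASXL_076779 and SmedASXL_068932. A ratio of at least 1.2 in each treatment was found for 291 transcripts (9.01% of all, and 280 members after TMM scaling). A ratio of at least 1.5 in each was found for 98 (1.14% of all, and 31 members after TMM scaling). The smallest ratio was that in APC RNAi for 169, in Bcat RNAi for 69 and in control RNAi for 59. After TMM scaling it was that in APC RNAi for 124, in Bcat RNAi for 35 and in control RNAi for 138, so which treatment had the weakest rise turned with the scaling.

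**Figure D4:**
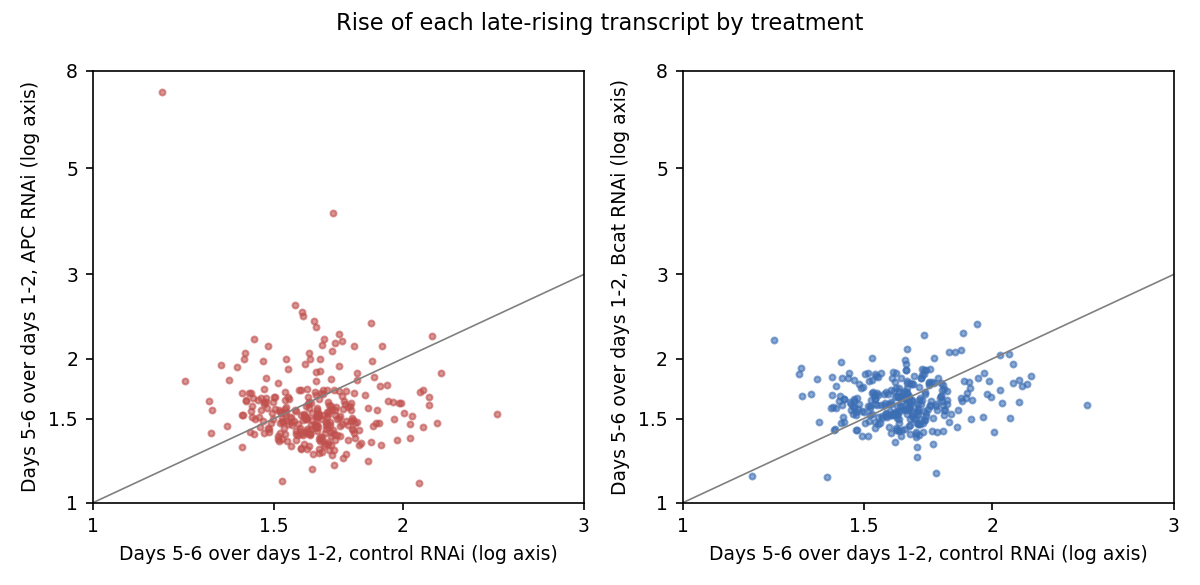
Ratio of days 5 and 6 to days 1 and 2 on plain CPM for each of the 297 transcripts, in APC RNAi (left) and Bcat RNAi (right) against control RNAi (log axes, line of equal ratios). Most points lie between 1.2 and 2.5 on each axis, and the highest points on the left are SmedASXL_076779 at 7.21 and SmedASXL_068932 at 4.04.

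Within single treatments nearly all members separated early from late libraries, as their selection favours. Both libraries of days 5 and 6 were above both of days 1 and 2 for 288 transcripts in APC RNAi and 294 in Bcat RNAi, against 297 in control RNAi. Among all transcripts that reached 2 CPM this held for 36.2% in APC RNAi and 32% in Bcat RNAi, against 39.9% in control RNAi. All 6 late libraries were above all 6 early ones for 74 of the 297, against 2.6% of all, and for 130 after TMM scaling. The selection used this contrast, so nothing is read from these counts.

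Days 3 and 4 entered the selection only through the 6-day level limits and the minimum mean, and without day 3 it took 280 transcripts, 273 of them shared. They were between the early and the late mean for 275 transcripts in APC RNAi and 289 in Bcat RNAi, against 291 in control RNAi. Over all transcripts of at least 2 CPM they were between, in either direction, for 49.4% in APC RNAi and 53% in Bcat RNAi, against 63.8% in control RNAi. Of the 56 falling transcripts 55, 54 and 55 were between, so a level in between is shared with them. By then the median transcript had covered 50.9% of its change in APC RNAi and 57.7% in Bcat RNAi, against 42.9% in control RNAi, and 34.9%, 50.7% and 43.3% after TMM scaling. The 56 falling transcripts had covered 65.7%, 64.5% and 69.8% of theirs in these treatments, and 80.4%, 71.4% and 69.8% after TMM scaling. These shares are of the change in CPM, not in log2 units, so rising and falling transcripts cannot be compared by them directly. Curvature was tested as the log2 level of days 3 and 4 minus the mean of the early and late levels, over all treatments. Its median was 0.00 over the 297 (quartiles -0.04 and 0.05, range -0.33 to 0.27, median SE 0.07) and 0.01 over all transcripts tested. Curvature passed for 0 of the 297 in edgeR's quasi-likelihood test and for 0% of all 36235 tested, and for 0 of the 297 in DESeq2, against 1.31% of all with an adjusted p there. At an unadjusted p under 0.05, 8 were above and 8 below a straight course, against 6.37% and 5.41% of all. Without the Bcat RNAi day 1 library, 1 of the 297 passed. The 36235 tested in edgeR, here and below, include transcripts under 2 CPM, unlike the 297. Shares of all tested are therefore not matched to the 297 in abundance.

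The rate of climb per day separated the treatments for few late-rising transcripts, and for how many depended on the model. With no day term beyond the slopes edgeR called 0 of the 297 in each of 3 comparisons. With day as a replicate block, since libraries of a day share it, edgeR called 6 for APC RNAi minus control RNAi (0.27% of all tested), 1 for Bcat RNAi minus control RNAi (0.35% of all) and 5 for APC RNAi minus Bcat RNAi (0.331% of all). The median slope was 0.13 log2 units per day in APC RNAi and 0.16 in Bcat RNAi, against 0.13 in control RNAi. Over all transcripts tested it was 0.02, 0.00 and 0.01. The selection required a higher late level in each treatment and limited the 6-day means, and it let in transcripts through 1 treatment, so it touches the slope differences and they describe the members. APC RNAi minus control RNAi had a median slope difference of 0.00 log2 units per day (quartiles -0.03 and 0.05, median SE 0.05), and 0.02 over all tested. It passed for 0 of the 297, against 0.0386% of all in either direction (edgeR). At an unadjusted p under 0.05, 28 were steeper in APC RNAi (6.27% of all) and 6 flatter (1.79% of all). DESeq2 called 2, against 0.195% of all with an adjusted p there.

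Bcat RNAi minus control RNAi had a median slope difference of 0.03 log2 units per day (quartiles 0.00 and 0.07, median SE 0.05), with 230 of 297 above 0 and a median of 0.00 over all tested. It passed for 0 of the 297, against 0.0331% of all (edgeR). At an unadjusted p under 0.05, 18 were steeper in Bcat RNAi (2.98% of all) and 1 flatter (2.89% of all). DESeq2 called 1, against 0.161% of all with an adjusted p there. The median difference over the 297 was -0.01 without the Bcat RNAi day 1 library and -0.02 without day 1. Its sign thus rested on that day. APC RNAi minus Bcat RNAi had a median of -0.03 (quartiles -0.07 and 0.01, median SE 0.05), against 0.02 over all tested. It passed for 0 of the 297, against 0.069% of all (edgeR), with 13 steeper (4.13% of all) and 19 flatter (1.63% of all) in APC RNAi at an unadjusted p under 0.05. DESeq2 called 2, against 0.334% of all with an adjusted p there. This median also changed sign, to 0.01, without the Bcat RNAi day 1 library and, likewise to 0.01, without day 1. These 3 comparisons share libraries in pairs and are not independent of each other.

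The selection averaged days 1 and 2, and days 5 and 6, but depended on them unequally: without day 1 it took 159 transcripts and without day 2 it took 628. The steps within these periods are thus not free of it. Day 2 was higher than day 1 in each treatment for 179 of the 297, against 26.9% of all of at least 2 CPM, and for 148 after TMM scaling, against 17.1%. The median step was 0.14 log2 units in APC RNAi and 0.44 in Bcat RNAi, against 0.11 in control RNAi, and 0.09, 0.42 and 0.05 after TMM scaling. Over all of at least 2 CPM it was 0.07, 0.02 and 0.01 on plain CPM. Day 2 was above day 1 for 240 of the 297 in APC RNAi (68% of all), 280 in Bcat RNAi (53.8% of all) and 205 in control RNAi (53.3% of all). Relative to control RNAi on the same day, the median level in Bcat RNAi was 0.984 on day 1, 1.24 on day 2 and 1.07 to 1.2 thereafter, and 0.926, 1.2 and 1.1 to 1.2 after TMM scaling. This step rests on single libraries, and its difference from the other treatments was not tested.

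In the test over all treatments, 2 of the 297 rose on day 2 relative to day 1, against 0.0938% of all tested, and 1 fell, against 0.284% of all. DESeq2 called 7 higher and 1 lower, against 1.36% in either direction of all with an adjusted p there. The called rises were lost without the Bcat RNAi day 1 library, where edgeR called 0 higher and 2 lower. The median step over the 297 was then 0.08 log2 units, against 0.20 with it. Without the control RNAi libraries edgeR also called 0, at a median step of 0.27. SmedASXL_002407 had 29.7 CPM on day 2 against 24.1 on day 1 in APC RNAi, 54.1 against 33.4 in Bcat RNAi and 41.1 against 30.1 in control RNAi. Day 2 was higher in each treatment, by 0.44 log2 units over all treatments (SE 0.08, adjusted p = 0.0241, edgeR). Its levels went on to 39.7, 76.6 and 57.6 CPM on day 6 in APC, Bcat and control RNAi. SmedASXL_017782 had 21.0 CPM on day 2 against 17.5 on day 1 in APC RNAi, 37.9 against 27.4 in Bcat RNAi and 29.7 against 23.1 in control RNAi. This was a rise of 0.32 log2 units (SE 0.07, adjusted p = 0.0458, edgeR). Of 11 alternatives, the call passed in 7 for SmedASXL_002407 (adjusted p = 0.00379 to 1.0 in edgeR or DESeq2) and in 4 for SmedASXL_017782 (0.0203 to 1.0). Without the Bcat RNAi day 1 library the steps were 0.31 and 0.26 log2 units, with adjusted p of 0.0764 and 0.181 (edgeR).

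SmedASXL_075293 alternated between days. It had 11.6, 9.25, 21.5, 10.6, 16.4 and 17.3 CPM on days 1 to 6 in APC RNAi. It had 14.6, 9.71, 20.9, 12, 17.7 and 15.8 CPM in Bcat RNAi, and 19, 11.9, 21.1, 14.5, 26.1 and 24.4 CPM in control RNAi. Days 2 and 4 were its 2 lowest days in every treatment. Day 2 was 0.58 log2 units below day 1 (coefficient -0.58, SE 0.10, adjusted p = 0.0131, edgeR). Day 4 was below day 3 (coefficient -0.81, SE 0.10, adjusted p = 0.000818, edgeR). The calls passed in 7 and 8 of 11 alternatives.

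Between days 3 and 4 the climb was small. Day 4 was higher in each treatment for 139 transcripts, against 16.2% of all of at least 2 CPM, and for 107 after TMM scaling, against 9.89%. The median step was 0.10 log2 units in APC RNAi and 0.09 in Bcat RNAi, against 0.14 in control RNAi. After TMM scaling it was 0.15, 0.01 and 0.13, so the step in Bcat RNAi was close to 0 there. In Bcat RNAi 228 of 297 were higher on day 4 on plain CPM (55.6% of all). After TMM scaling 156 were higher (29.7% of all). The median step of all in Bcat RNAi moved likewise, from 0.02 on plain CPM to -0.07 after TMM scaling. In the edgeR test 0 of the 297 were called higher on day 4, as were 0% of all tested, and 1 lower, SmedASXL_075293, against 0.0221% of all. DESeq2 called 1 of the 297, also lower, against 0.117% in either direction of all with an adjusted p there.

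From day 5 to day 6 the direction turned with the scaling. On plain CPM the median step was 0.20 log2 units in APC RNAi and 0.15 in Bcat RNAi, against 0.04 in control RNAi. After TMM scaling it was -0.07, -0.01 and -0.02, while that of all of at least 2 CPM was -0.19, -0.13 and -0.08. With TMM factors computed only on transcripts from 4 CPM up it was 0.13, 0.14 and 0.06, and with RLE factors -0.15, -0.05 and -0.05. Day 6 was higher in each treatment for 154 transcripts, against 25.2% of all, and for 44 after TMM scaling, against 6.8%. The highest day moved likewise. On plain CPM it was day 6 for 226 transcripts in APC RNAi and 268 in Bcat RNAi, against 180 in control RNAi, and after TMM scaling for 108, 133 and 128. For all transcripts of at least 2 CPM it was day 6 for 26.1, 26.5 and 27.3% in these treatments on plain CPM, and for 8.54, 7.42 and 12.3% after TMM scaling. Whether levels still climbed on the last day therefore cannot be read from these libraries.

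**Figure D5:**
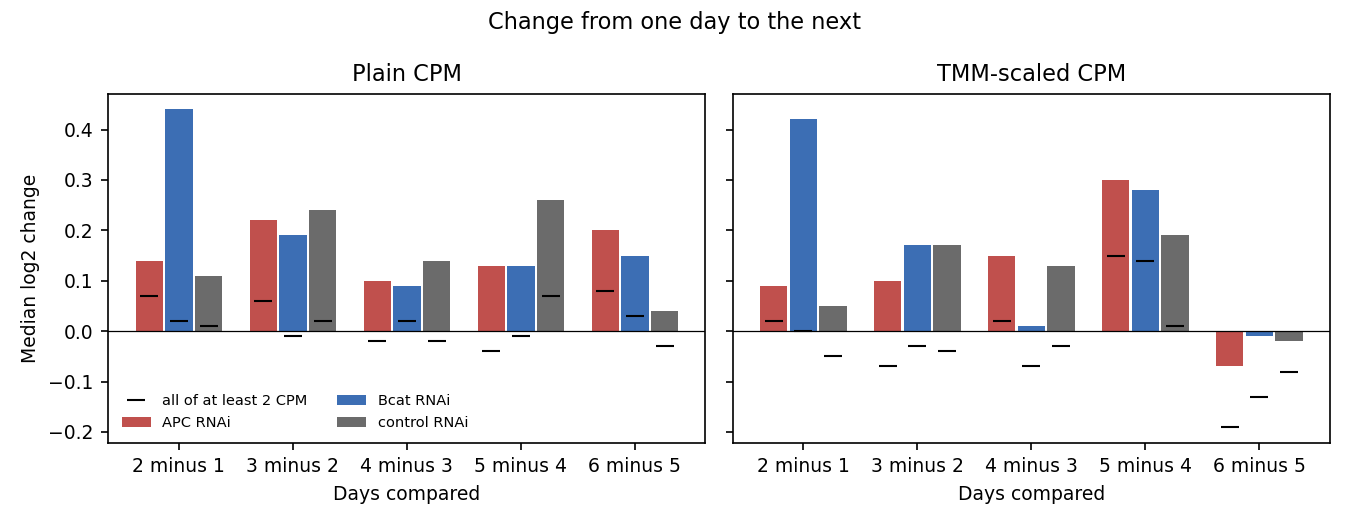
Median log2 change of the 297 transcripts from each day to the next (bars) in APC, Bcat and control RNAi, on plain CPM (left) and TMM-scaled CPM (right), with the median of all transcripts of at least 2 CPM as black dashes. The tallest bar is day 2 minus day 1 in Bcat RNAi (0.44 and 0.42), and the bars for day 6 minus day 5 lie above 0 on plain CPM and below 0 after TMM scaling.

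In the test 2 of the 297 rose on day 6 relative to day 5, against 1.24% of all tested, and 0 fell, against 2.01% of all. SmedASXL_019914 had 5.82 CPM on day 6 against 2.67 on day 5 in APC RNAi, 6.31 against 5.01 in Bcat RNAi and 7.25 against 4.19 in control RNAi. Day 6 was its highest day in each treatment. The step was 0.57 log2 units (SE 0.13, adjusted p = 0.0364, edgeR), and the call passed in 5 of 11 alternatives. Without the APC RNAi day 5 library 0 of the 297 were called. With all libraries DESeq2 called 5 higher and 5 lower, against 35.2% in either direction of the 15160 with an adjusted p there.

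The members shared a lower level in APC RNAi, which the limits of 0.67 to 1.45 bound but do not impose. The median of APC RNAi over control RNAi was 0.769, against 0.927 over all of at least 2 CPM, and 266 of the 297 were below 1, against 74.8% of all. It was 0.799 on day 1 and 0.781 on day 6, and 0.926 and 0.923 after TMM scaling. After TMM scaling the median was 0.922 over the 297 and 1.10 over all, with 222 below 1, against 24.4% of all. With RLE factors it was 0.968 over the 297 and 1.16 over all. Near the lower limit, 119 had a ratio of 0.67 to 0.75. Without level limits 470 transcripts met the rise rule on plain CPM, and 153 of the 173 dropped had an APC RNAi level under 0.67 of control RNAi. A Bcat RNAi level over 1.45 of control RNAi was found in 42 of the 173, and 29 had both. Higher late levels were thus also found in transcripts that the limits leave out, most of them lower in APC RNAi on plain CPM. The dropped transcripts were not counted after TMM scaling.

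Bcat RNAi levels stood slightly above control RNAi. The median ratio was 1.14 (1.02 over all of at least 2 CPM), with 240 above 1 against 55.2% of all. In the falling counterpart it was 1.09, so a level above control RNAi is not particular to the members. After TMM scaling the median ratio was 1.13, against 1.01 over all. The authors' deposited table lists transcripts that differed between APC RNAi and Bcat RNAi over all days, and it lists 136 of the 297 (45.8%), against 54.0% of all of at least 2 CPM. Of the 297, the authors' deposited table lists 127 as higher in Bcat RNAi, against 16.7% of all of at least 2 CPM. It lists 9 of the 297 as higher in APC RNAi, against 37.4% of all. The log2 fold change of APC RNAi over Bcat RNAi in the authors' deposited table had a median of -0.47 and a range of -0.74 to 1.00 for the 136 listed. The level limits restrict this contrast, so these counts describe the members and support nothing.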

How the data were processed

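PolyA RNA libraries of 3 treatments on 6 days were used as the authors deposited them, as raw, unnormalized read counts per transcript. Bowtie2 2.2.4, bcl2fastq 1.8.3 and DESeq2 are named by the submitters' processing notes; their settings, the handling of reads that fit several similar transcripts and strand are not given in the sources used here. The 2 rows that name no transcript, total and unaligned reads (5.22% unaligned), were left out. A second table deposited by the authors holds log2 fold changes with adjusted p-values from DESeq2, for APC RNAi against Bcat RNAi.

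The members and all rules were chosen with earlier results of these data known. Ratios used CPM with 0.1 added to means. In R 4.3.3 with edgeR 4.0.16, filterByExpr kept 36235 transcripts (the others held 0.284% of reads). Curvature and day steps were tested with TMM factors by the quasi-likelihood test in a model of treatment plus day as a factor (10 residual degrees of freedom). Slope differences were tested with treatment and a day slope per treatment (12 degrees). P-values were Benjamini-Hochberg adjusted over all tested, with a threshold of 0.05. The tests were checked on simulated counts. DESeq2 1.42.0 was an alternative.

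Libraries of the same number share a day per the labels. Same-day deviations from the treatment means correlated from -0.069 (day 3) to 0.695. No 2 libraries were copies (lowest chi-square per degree of freedom 5.04). Transcripts were named, at most 2 each way per comparison, by the largest called change at 4 CPM or more in the same direction in each treatment, by the largest ratio averaged over treatments, or by abundance. Gene lists, cell type markers, sequences and the check of the RNAi targets were not run, because identifiers could not be matched to names.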

Additional observations from a re-analysis of the deposited data

Results flagged for a closer look

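The summed CPM of the 297 transcripts and the 9 named transcripts gave 30 groups of 6 libraries over the 3 treatments, of which 1 held a library apart from the rest. SmedASXL_019914 had 7.25 CPM on day 6 of control RNAi, and its gap to the next library was 0.755 of the whole range of that treatment, above Dixon's critical value for 6 libraries. The usual rate of chance flags, about 1 in 20, holds for replicates, whereas these libraries are successive days of a course. SmedASXL_019914 was also named for its step from day 5 to day 6, so nothing is read from this flag. The other 2 treatments also had their highest level of this transcript on day 6, 5.82 CPM in APC RNAi and 6.31 CPM in Bcat RNAi.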

How the results depend on the processing

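The number selected was the least stable result. It was 179 with TMM scaling, 136 with RLE scaling, 197 with 1 in place of 0.1 added to means, 3 with a least ratio of 2 and 493 without the APC RNAi day 5 library. Leaving out 1 day in turn gave 159 (without day 1) to 628 (without day 2), with 590 without day 5 and 191 without day 6. The median ratio was 1.48 with TMM scaling, 1.45 with RLE, 1.51 with 1 added and 1.68 without APC RNAi day 5. Calls of the step from day 1 to 2 were 5 with TMM factors from 4 CPM, 7 with loess offsets, 8 with DESeq2, 0 with no replicate block (treatment left out of the model) and 0 to 1 with 1 treatment left out. Calls of the step from day 3 to 4 were 0 with no replicate block and 0 to 1 with 1 treatment left out. Calls of the step from day 5 to 6 were 4 with RLE factors, 5 with no filter, 4 without Bcat RNAi day 1, 10 with DESeq2, and 0 with loess offsets, without APC RNAi day 5, with no replicate block or with any 1 treatment left out. Curvature gave 1 call without Bcat RNAi day 1 and 0 with 1 treatment left out. Slope differences of APC RNAi minus control RNAi gave 1 call with RLE, without Bcat RNAi day 1 or by periods of days, 3 with no filter, 2 with DESeq2, 6 with the replicate block of days and 0 to 1 with 1 day left out. Those of Bcat RNAi minus control RNAi gave 1 with no filter, the replicate block or DESeq2, and 0 with 1 day left out. Those of APC RNAi minus Bcat RNAi gave 1 with RLE, 2 with no filter, by periods or with DESeq2, 5 with the replicate block and 0 to 2 with 1 day left out. Of 55 alternatives to the tested steps of named transcripts, 31 kept the call, 24 lost it and 0 reversed. Of 60 alternatives to late over early ratios of named transcripts, 9 fell under 1.5, all for SmedASXL_017924 (lowest 1.35) and SmedASXL_018822 (lowest 1.42). The alternatives without APC RNAi day 5 and the added scalings of the selection were chosen after the data were seen, and the causes of these changes were not tested.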
